A study of Mus musculus with 6 samples.

Results

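The genes described here are 8 genes whose products chondrocytes secrete or carry on their surface: Ucma, Cnmd, Cytl1, Snorc, Mia, Scrg1, Mgp and Clec3a. They were chosen by name, as genes of the deposited table whose symbol is on this list, and all 8 were found among the 15803 genes of the table. The study asked what the loss of Hnrnpk, a protein that binds RNA and DNA, does to the growth plate. Growth plate cartilage was taken from mouse embryos at embryonic day 18.5 and its polyadenylated RNA was sequenced in 6 libraries. Embryos of the genotype Hnrnpk fl/fl, with loxP sites around exons of Hnrnpk and no Cre, gave 3 libraries labelled WT. Embryos of the genotype Col2a1-Cre;Hnrnpk fl/fl gave 3 libraries labelled CKO, and carry the same alleles with a Cre recombinase under the promoter of the cartilage collagen gene Col2a1. Recombination is therefore limited to cells that make or made this Cre, and other cells of the dissected tissue keep Hnrnpk. Embryos of both sexes were used. The labels do not say whether the libraries are separate embryos, so the p-values measure the spread between these libraries, which may be technical.

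Most of the dry mass of cartilage is collagen and aggrecan, but chondrocytes also release small proteins into this matrix. Ucma and Mgp belong to the Gla proteins, whose glutamate residues are carboxylated by an enzyme that needs vitamin K, and which bind calcium and hold back mineral in cartilage and vessel walls. Cnmd, chondromodulin, is cut from the cell surface and inhibits the growth of blood vessels, which healthy cartilage lacks. Snorc is a small transmembrane proteoglycan of chondrocytes, Mia a secreted protein with a fold like that of SH3 domains, Clec3a a lectin-like protein of the cartilage matrix, and Scrg1 and Cytl1 are small secreted proteins made by chondrocytes.

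The coding sequences bear out the word small for 7 of the 8 genes. The longest annotated coding sequence had at most 200 codons in these 7, as it had in 13.7% of the 11626 coding genes tested. The median was 134.5 codons over the 8 genes and 455 codons over the coding genes tested. Scrg1 was the shortest with 98 codons and Cnmd, the exception, had 338 codons.

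For each gene and library the authors deposited CPM, the reads on a gene scaled so that all libraries have the same sum. The steps between low values gave back the reads themselves. WT 1, WT 2 and WT 3, as labelled, held 1379674, 1332542 and 1183743 reads, and CKO 1, CKO 2 and CKO 3 held 1454094, 1385468 and 1153871 reads. At this low depth 1 read was worth between 0.688 and 0.867 CPM, and a gene with 3 reads, used here as the floor of detection in a library, stood between 2.06 and 2.60 CPM. Each of the 8 genes had at least 29 reads in every library and passed the filter of a mean of 1 CPM, as did 12155 genes in all. Amplified reads carry no molecular identifiers and are not independent molecules, so the intervals and floors on reads take in counting error alone.

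Hnrnpk itself did not separate the genotypes. Its level was 842, 955 and 944 CPM in WT 1, WT 2 and WT 3, and 759, 949.9 and 780.0 CPM in CKO 1, CKO 2 and CKO 3. The values overlapped, with a log2 fold change of -0.14 (CKO minus WT, standard error 0.15, limma adjusted p = 0.622). Reads were counted over all exons together, deleted or not, and 3 other annotated genes (Gm4130, Gm6350 and Gm7964) are near-identical to Hnrnpk in sequence and could share its reads. The libraries are therefore called by their labels, and every direction below rests on those labels.

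Libraries of the same genotype differed from each other to unequal degrees. Over genes with at least 20 reads in a pair of libraries, the chi-square per gene, which is near 1 where counting error is the only difference, was 1.29 between CKO 1 and CKO 3 and 2.06 between WT 1 and WT 2. WT 3 stood at 9.43 and 8.65 from WT 1 and WT 2, and CKO 2 at 14.2 and 13.1 from CKO 1 and CKO 3. CKO 1 and CKO 3 thus differed little beyond counting error, and 7.09% of 7382 genes passed the 5% point of the chi-square. They were counted as separate libraries because they are labelled so, and whether they come from separate embryos cannot be told from these values. WT 3 and CKO 2 stood apart from the rest of their genotype also in several of the 8 genes. Relative to the mean of WT 1 and WT 2, the level in WT 3 was 3.61 times as high for Scrg1, 2.30 times for Clec3a, 2.01 times for Ucma and 1.83 times for Mgp, but 1.03 times for Cnmd and 0.99 times for Cytl1. Relative to the mean of CKO 1 and CKO 3, the level in CKO 2 was 3.64 times as high for Cytl1, 2.58 times for Clec3a and 2.05 times for Snorc, and 0.578 times for Cnmd.

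Together the 8 genes took up a smaller share of the reads in the libraries labelled CKO. Their CPM summed to 17156 in WT 1, 17121 in WT 2 and 23649 in WT 3, and to 8404 in CKO 1, 7139.8 in CKO 2 and 8368 in CKO 3. As a share of all reads this was 1.72% (95% Wilson interval 1.69 to 1.74%), 1.71% (1.69 to 1.73%) and 2.36% (2.34 to 2.39%) in the WT libraries. In the CKO libraries it was 0.840% (0.826 to 0.855%), 0.714% (0.700 to 0.728%) and 0.837% (0.820 to 0.854%). Every CKO sum lay below every WT sum. The makeup of the sum also differed. Cnmd supplied 50.9% ± 8.09 (SD, n = 3) of these reads in WT and 19.2% ± 3.98 in CKO, while Mgp supplied 17.9% ± 3.07 in WT and 62.4% ± 3.83 in CKO.

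**Figure D1:**
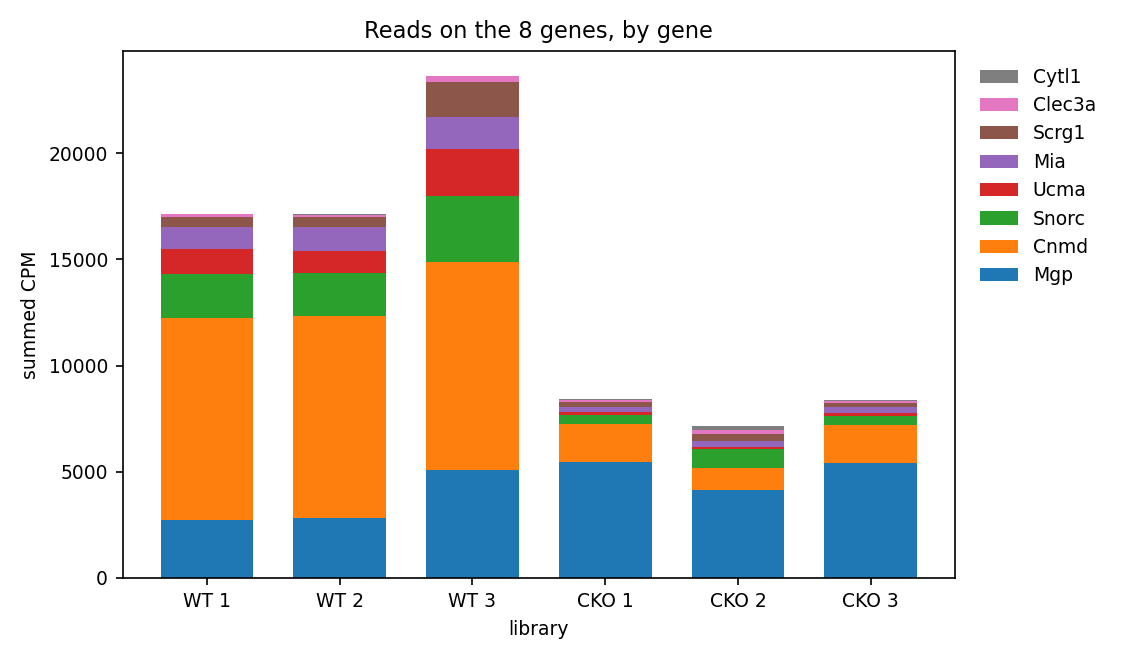
Summed CPM of the 8 genes in each of the 6 libraries (bars from 0, coloured by gene). The 3 bars labelled CKO lie between 7139.8 and 8404 CPM, below the 3 bars labelled WT, and Mgp makes up most of each CKO bar.

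Each gene was compared between the genotypes in the limma fit of log2(CPM + 1) over all 12155 genes, a scale on which the change of genes with few reads is understated. Ucma, Cnmd, Mia and Snorc were lower in CKO at an adjusted p under 0.05, that is 4 of 8, where 2.6% of all genes tested (316) were lower. None of the 8 was higher past that threshold, against 3.18% of all genes (387), while 2 of them, Cytl1 and Mgp, were higher at an unadjusted p under 0.05, where 11.2% of all genes were. At that unadjusted threshold 5 were lower, where 10.1% of all genes were. edgeR's quasi-likelihood test on the recovered reads called 5 lower, where 4.71% of 7704 genes were, and 0 higher, where 4.85% were. DESeq2 called 4 lower, where 2.81% of 10584 genes were, and 1 higher, where 3.21% were. By the criterion of the study's methods, a log2 fold change past 1 or -1 with an unadjusted p under 0.05, 5 were lower, where 5.1% of all genes were, and 1 was higher, where 5.3% were. In 6 genes there was no overlap between WT and CKO values: 5 were lower in every CKO library, where 13.2% of all genes tested were, and 1, Cytl1, was higher in every CKO library, where 14.5% were. The median log2 fold change was -1.86 over the 8 genes and 0.013 over all genes tested. All 8 genes were chosen with earlier results of these data known, so neither their directions nor their counts beside all genes are independent evidence. Ucma and Cnmd are also among the genes that the study itself picked out from these libraries. In bulk tissue, fewer cells of a type and less RNA per cell cannot be told apart.

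**Figure D2:**
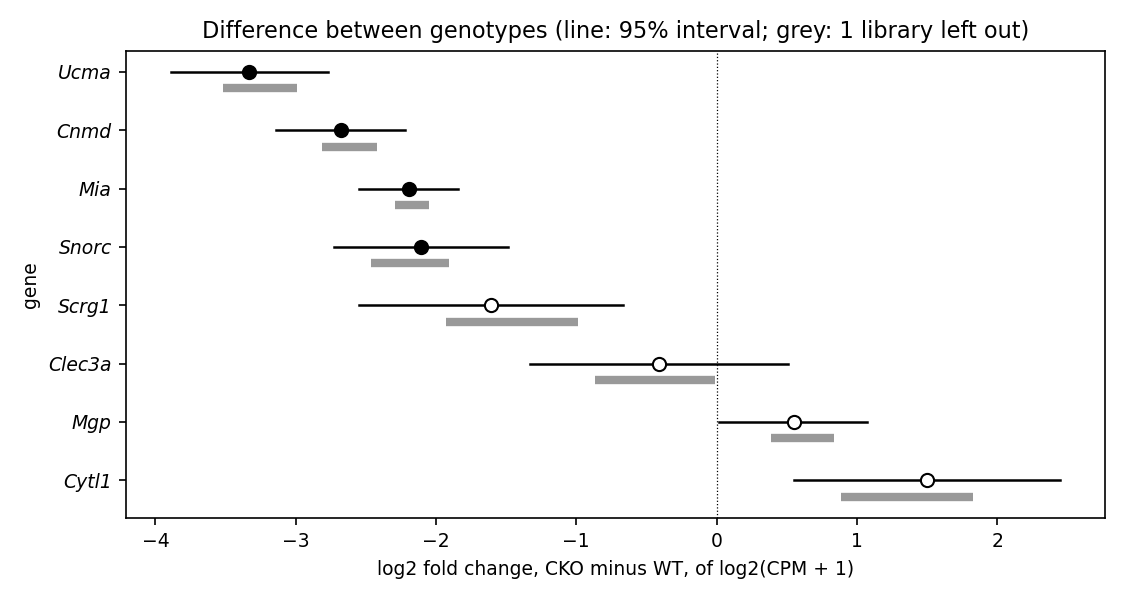
Log2 fold change (CKO minus WT, of log2(CPM + 1)) of each of the 8 genes, with the 95% interval as a black line and the range with each library left out in turn as a grey bar. Filled points had a limma adjusted p under 0.05, from Ucma at -3.33 to Snorc at -2.11, and open points did not.

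The counts over all genes rested on single libraries, and those of the 8 genes less so. Left out in turn, WT 1, WT 2, WT 3, CKO 1, CKO 2 and CKO 3 left 81, 79, 221, 125, 606 and 108 genes lower and 137, 133, 322, 133, 692 and 123 genes higher, while 4 or 5 of the 8 genes were lower and 0 or 1 higher. Alternatives chosen after the data were seen treated the libraries that stand apart. With WT 3 and CKO 2 both left out, 6 of the 8 genes were lower, where 9.22% of 11911 genes were, and 2 were higher, where 11% were. The pairs left in this fit are the most alike of each genotype. With CKO 1 and CKO 3 averaged as 1 library, 120 genes in all were lower and 139 higher, and Ucma, Cnmd, Mia (adjusted p = 0.00142 for each) and Snorc (0.0207) passed, lower. With CKO 1 and CKO 3 averaged, and WT 1 and WT 2 averaged, 6 genes in all were lower, 0.0492% of 12197, and 3 of them were Ucma, Cnmd and Mia.

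RefSeq's promoter table (build GRCm38.p6) held an entry for 4 of the 8 genes, Ucma, Cnmd, Cytl1 and Mia. The 250 bases before each start are printed because these genes include 3 that were lower together and the 1 that was higher in every CKO library. They were searched on both strands for ACAAT and ACAAAG, short forms of the sequence that Sox proteins bind, TATAAA, the TATA box, ACGTG, the core of the hypoxia response element, and GGGCGG, the GC box. Capitals mark the only match, a GC box on the reverse strand of the Cytl1 window, with its start 172 bases before the start of the gene, and it overlaps no other motif of these. Among 27025 promoters of the same length, 28.3% held ACAAT, 16.5% ACAAAG, 13% TATAAA, 16.6% ACGTG and 32.9% GGGCGG. A match is a run of letters, not a shown site, and no match means only that these letters are not in this window. The windows are chr2:4975872-4976121 on the plus strand for Ucma, chr14:79662184-79662433 on the minus strand for Cnmd, chr5:37735269-37735518 on the plus strand for Cytl1 and chr7:27181150-27181399 on the minus strand for Mia. Each is written in the direction of its gene. The last bases of the Mia window lie within the Mia gene as the GENCODE annotation places it.
Ucma: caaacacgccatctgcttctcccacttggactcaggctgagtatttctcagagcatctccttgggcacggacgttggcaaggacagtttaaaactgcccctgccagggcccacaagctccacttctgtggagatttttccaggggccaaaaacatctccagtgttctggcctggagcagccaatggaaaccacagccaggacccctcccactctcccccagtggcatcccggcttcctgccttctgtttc
Cnmd: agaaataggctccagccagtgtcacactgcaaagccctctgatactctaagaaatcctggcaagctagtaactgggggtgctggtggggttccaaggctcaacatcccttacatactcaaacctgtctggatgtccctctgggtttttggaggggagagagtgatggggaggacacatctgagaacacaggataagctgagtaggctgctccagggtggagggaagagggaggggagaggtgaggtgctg
Mia: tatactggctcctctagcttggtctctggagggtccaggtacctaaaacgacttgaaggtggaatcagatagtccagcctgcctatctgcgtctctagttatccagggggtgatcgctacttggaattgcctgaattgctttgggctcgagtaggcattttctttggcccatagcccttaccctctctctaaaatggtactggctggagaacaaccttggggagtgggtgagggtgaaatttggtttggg
Cytl1: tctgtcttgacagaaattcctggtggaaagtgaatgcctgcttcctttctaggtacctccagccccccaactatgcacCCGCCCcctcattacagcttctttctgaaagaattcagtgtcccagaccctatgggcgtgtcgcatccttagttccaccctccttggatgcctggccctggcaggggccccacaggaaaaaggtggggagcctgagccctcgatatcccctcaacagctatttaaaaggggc
The GC content of these windows was 56.4% for Ucma, 54% for Cnmd, 50.4% for Mia and 54.8% for Cytl1, where the median over the 27025 promoters was 52%.

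Of the Gla proteins Ucma and Mgp, which share the need for vitamin K, Ucma was lower in CKO and Mgp did not pass the threshold. The difference between their changes was not tested, and within the genotypes both were highest in WT 3 and lowest in CKO 2 of their groups. Ucma (ENSMUSG00000026668, chr2:4976122-4985748 of GRCm38, plus strand, protein coding), named for the upper zone of the growth plate where it is made, had 1141 CPM in WT 1, 1075 in WT 2 and 2223 in WT 3, and 149, 124 and 143 CPM in CKO 1, CKO 2 and CKO 3. The lowest WT library stood well above the highest CKO library, and the CKO libraries were close to each other. The mean was 1479 ± 645 CPM in WT and 139 ± 12.8 CPM in CKO (SD, n = 3), 10.7-fold lower in CKO. The log2 fold change of -3.33 (standard error 0.25, 95% interval -3.89 to -2.77, limma adjusted p = 1.22e-04) was the largest in size of the 8, and it rested on 5637 reads in WT and 553 in CKO.

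Mgp (ENSMUSG00000030218, chr6:136872435-136875823, minus strand), matrix Gla protein, whose absence in mice lets cartilage and arteries calcify, had 2731 CPM in WT 1, 2816 in WT 2 and 5079.6 in WT 3, and 5434, 4140.1 and 5405 CPM in CKO 1, CKO 2 and CKO 3. The genotypes overlapped, because WT 3 lay above CKO 2. The means were 3542 ± 1332 CPM in WT and 4993 ± 739 CPM in CKO, with a log2 fold change of 0.55 (standard error 0.24, 95% interval 0.02 to 1.07) that did not pass the threshold (limma adjusted p = 0.213). Without WT 3 it was 0.84 and passed (adjusted p = 0.0194), and with each of the other libraries left out in turn it did not, with adjusted p-values up to 0.504.

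Around these proteins stand the enzymes of the vitamin K cycle, of which 1 of 3 was lower in CKO and 0 higher. Vkorc1, which recycles vitamin K, had 679.9, 602 and 1020.5 CPM in WT 1, WT 2 and WT 3 and 420.2, 258 and 418 CPM in the CKO libraries, a log2 fold change of -1.07 (limma adjusted p = 0.0309). Every CKO library lay below every WT library. Ggcx, the carboxylase itself, stood at 15.5 ± 6.38 CPM in WT and 20.3 ± 3.31 in CKO (adjusted p = 0.491), and Vkorc1l1 at 15.7 ± 1.06 and 10.2 ± 6.05 (adjusted p = 0.322). Of 8 other Gla proteins tested, Gas6, a ligand of receptor tyrosine kinases, was lower (log2 fold change -1.11, adjusted p = 0.0385). Prrg4, a membrane Gla protein, was higher (adjusted p = 0.0346), on 1 read in WT and 19 in CKO, so few that no fold is given. On this list edgeR tested 4 genes, Prrg4 not among them, and DESeq2 gave an adjusted p to 7, Prrg4 among them, and each called 1 lower and 0 higher. There limma called 3 higher without CKO 2, adding Bglap (2.01, adjusted p = 0.00323) and Bglap2 (2.5, adjusted p = 5.53e-04), forms of osteocalcin. Of 3 other inhibitors of calcification, Nt5e, which makes adenosine outside the cell, was higher, with 132 ± 23.2 CPM in WT and 228 ± 41.0 in CKO (0.79, adjusted p = 0.0421), and Enpp1 (0.52) and Ank (0.49), named after their values were seen, were not past the threshold. Vkorc1, Gas6, Prrg4 and Nt5e each passed without CKO 2, and with any of the other 5 libraries left out they did not, with adjusted p-values up to 0.101, 0.128, 0.148 and 0.122. With the replicate number as a block, the calls of Gas6, Prrg4 and Nt5e were lost. Of the vitamin K cycle enzymes 1 was still called lower. The median log2 fold change was -0.70 over the vitamin K cycle enzymes, 0.31 over the other Gla proteins and 0.52 over the other inhibitors of calcification. With each library left out in turn these medians ran from -1.11 to -0.47, from 0.11 to 0.56 and from 0.19 to 0.80. Bglap and Bglap2, like every gene below that is named for a call with a library left out, were named after their values were seen, except the 8 genes, Sox9, Bmp4 and Itgb1.

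Cnmd (ENSMUSG00000022025, chr14:79637690-79662170, minus strand), the vessel growth inhibitor of cartilage, received more reads than any other gene of the table in each WT library. Its level was 9498, 9533 and 9818 CPM in WT 1, WT 2 and WT 3, and 1804, 1042 and 1799 CPM in CKO 1, CKO 2 and CKO 3. The WT libraries were nearly level, all CKO libraries were far below them, and CKO 2 was the lowest. By reads it ranked 84, 145 and 83 in the CKO libraries, and per kilobase of exon it ranked 3 in each WT library and 81, 147 and 81 in CKO. The means of 9616 ± 176 CPM in WT and 1548 ± 439 CPM in CKO (SD, n = 3) gave a 6.21-fold lower level in CKO. The log2 fold change was -2.68 (standard error 0.21, 95% interval -3.14 to -2.22, limma adjusted p = 1.39e-04).

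Of 7 other inhibitors of vessel growth, 1 was lower and 1 higher, with a median log2 fold change of 0.33 (0.12 to 0.55 with each library left out in turn). Serpinf1, a secreted serpin, had 210.5 ± 12.1 CPM in WT and 91.7 ± 23.4 in CKO (-1.22, limma adjusted p = 0.00943), and passed in 4 of 6 fits with a library left out, missing the threshold without WT 1 or WT 2 (adjusted p up to 0.0544). Timp3, an inhibitor of matrix proteases, had 142 ± 22.2 CPM in WT and 530.2 ± 269 in CKO (1.72, adjusted p = 0.0262), and passed without CKO 2 but with none of the other libraries left out (adjusted p up to 0.112). Thbs1 overlapped between genotypes, with 316, 362 and 226 CPM in WT and 1400.2, 214 and 1269.6 CPM in CKO, and this gene was named after its values were seen. Without CKO 2 it passed (2.17, adjusted p = 8.68e-05), which made 2 of the list higher.

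The relatives of the members by family were not called in either direction, 0 of 7 tested with limma, 0 of 6 with edgeR and 0 of the 7 to which DESeq2 gave an adjusted p, while 3 were lower at an unadjusted p under 0.05. All 7 log2 fold changes were negative, with a median of -0.78, and all that were tested stayed negative with TMM and RLE scaling. Without WT 1 or CKO 2, 1 of them was positive. The median was -0.20 without WT 3 and -0.41 without CKO 2. With WT 3 and CKO 2 both left out, limma called 1 of 7 lower and 0 higher, 1 was positive, and the median was -0.12. Among the relatives of Cnmd that share its BRICHOS domain, Tnmd stood at -0.83 (adjusted p = 0.325), Itm2a at -0.78 (0.203), Itm2b at -0.19 (0.572) and Itm2c at -0.78 (0.109). The relatives of Mia stood at -0.84 for Mia2 (0.161), -0.44 for Mia3 (0.338) and -0.17 for Otor (0.889). Clec3b, the relative of Clec3a, had 5 reads in WT and 2 in CKO and got no adjusted p from any of these tools.

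Snorc (ENSMUSG00000026258, chr1:87470271-87475482, plus strand) carries chondroitin sulfate on the chondrocyte surface. It had 2099.8 CPM in WT 1, 1990.2 in WT 2 and 3097 in WT 3, and 420.2, 874 and 434 CPM in CKO 1, CKO 2 and CKO 3. No CKO library reached the lowest WT library, and CKO 2 was the highest of the CKO libraries. The means were 2396 ± 609.8 CPM in WT and 576 ± 258 CPM in CKO, 4.16-fold lower in CKO (log2 fold change -2.11, standard error 0.28, 95% interval -2.73 to -1.49, limma adjusted p = 0.00308). The call held with each library left out in turn. It was lost with both alike pairs averaged, at -2.04 with an adjusted p of 0.11.

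Mia (ENSMUSG00000089661, chr7:27179742-27181157, minus strand), also known as the cartilage-derived retinoic acid-sensitive protein, had 1062, 1125 and 1474 CPM in the WT libraries and 261, 271 and 258 CPM in the CKO libraries. Its CKO values were the most even of the 8 genes. The means of 1220.3 ± 222 CPM in WT and 263 ± 6.99 CPM in CKO gave a 4.63-fold lower level (log2 fold change -2.19, standard error 0.16, 95% interval -2.55 to -1.84, limma adjusted p = 9.81e-05). The value is uncertain in that 1345 bases of the span of Mia, introns included, overlap the readthrough gene Gm21983 on the same strand. The exons of Mia hold 994 bases in all. Reads in the overlap could be given to either gene or to neither, and how many were given to neither cannot be told from these values. Gm21983 stood at 19.6, 16.5 and 17.7 CPM in WT and 15.8, 9.38 and 11.3 CPM in CKO, far below Mia in every library.

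Scrg1 (ENSMUSG00000031610, chr8:57455923-57477585, plus strand), a secreted protein first found in scrapie-infected brain, had 472 CPM in WT 1, 451 in WT 2 and 1664 in WT 3, and 196, 303 and 208 CPM in CKO 1, CKO 2 and CKO 3. Every CKO library lay below every WT library, and WT 3 stood far above the other WT libraries. The means were 862 ± 695 CPM in WT and 236 ± 58.7 CPM in CKO (SD, n = 3). The log2 fold change of -1.61 (standard error 0.42, 95% interval -2.55 to -0.67) just missed the threshold with limma (adjusted p = 0.0526). It passed without WT 3, which brought it to -0.99 (adjusted p = 0.0282), and without CKO 2 (-1.80, adjusted p = 0.0273), and with edgeR's quasi-likelihood test (-1.90, adjusted p = 0.0419). With the other 4 libraries left out in turn it did not pass, with adjusted p-values up to 0.163.

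Cytl1 (ENSMUSG00000062329, chr5:37735519-37739820, plus strand), cytokine like 1, ran in the opposite direction. It had 21.7, 27.8 and 24.5 CPM in WT 1, WT 2 and WT 3, and 47.5, 168 and 45.1 CPM in CKO 1, CKO 2 and CKO 3. Every CKO library lay above every WT library, and CKO 2 stood far above the other CKO libraries. The means were 24.7 ± 3.01 CPM in WT, from 96 reads, and 86.9 ± 70.4 CPM in CKO, from 354 reads. The log2 fold change of 1.5 (standard error 0.43, 95% interval 0.55 to 2.45) did not pass with limma (adjusted p = 0.0712), but DESeq2 called it (1.79, adjusted p = 0.00414). Without CKO 2 it was 0.89 and passed (adjusted p = 0.0296), and with the other 5 libraries left out in turn it did not, with adjusted p-values up to 0.218.

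Clec3a (ENSMUSG00000008874, chr8:114418086-114425846, plus strand) had 130.5, 103 and 269 CPM in the WT libraries and 92.8, 217 and 75.4 CPM in the CKO libraries. The genotypes overlapped widely, and the library that stood apart was the highest in each genotype. Its log2 fold change was -0.41 (standard error 0.41, 95% interval -1.33 to 0.51, limma adjusted p = 0.616), an interval that takes in both -1 and 0. It passed at -0.46 (adjusted p = 0.0455) without WT 3 and CKO 2 together, and over all its alternatives the adjusted p ran from 0.0455 to 0.994.

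**Figure D3:**
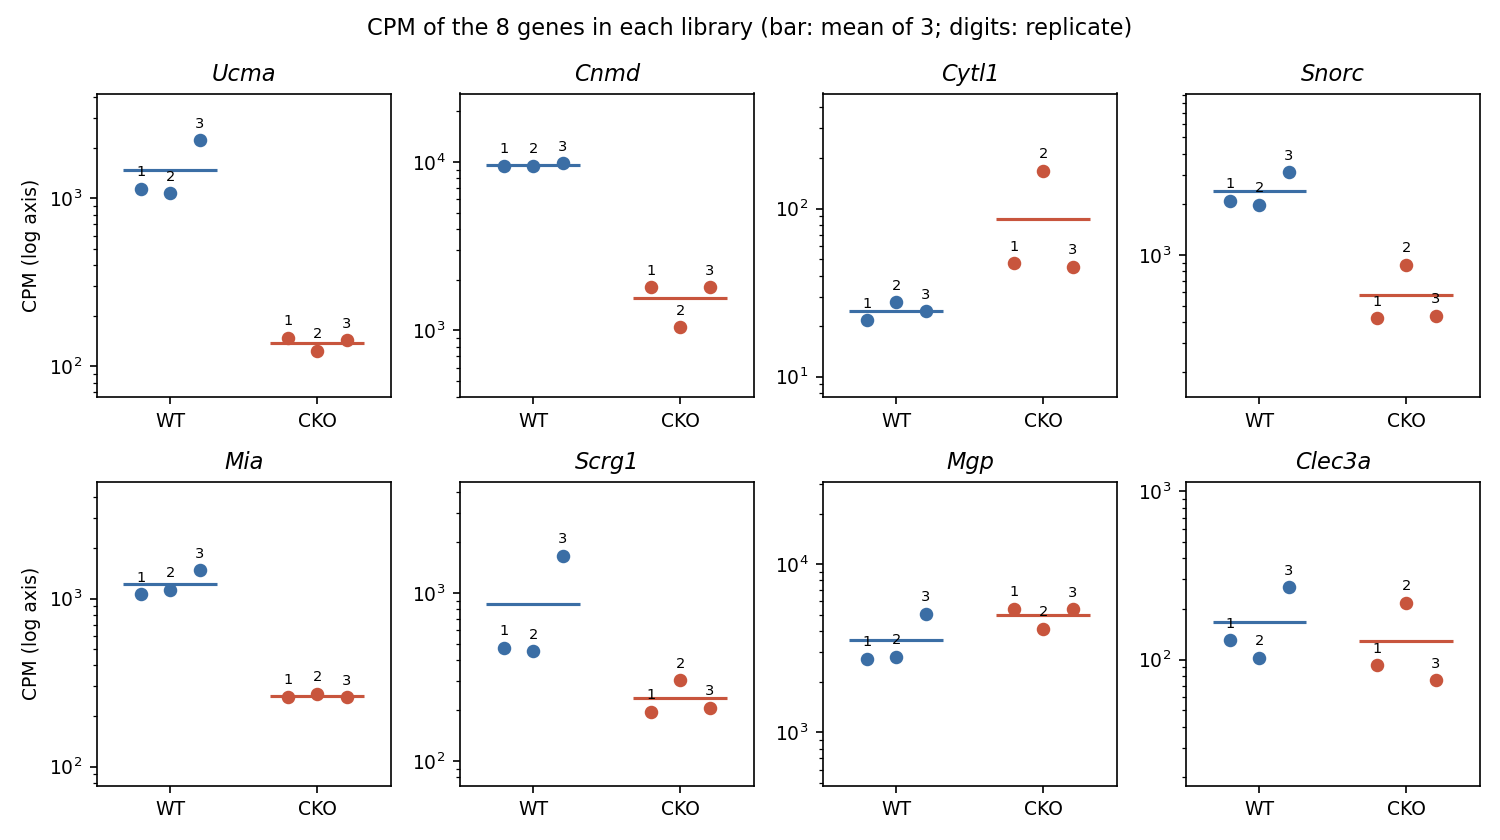
CPM of each of the 8 genes in the 6 libraries (log axis, points marked by replicate number, bars for the mean of 3). Ucma, Cnmd, Mia, Snorc and Scrg1 lie lower in every CKO library, Cytl1 lies higher, and Mgp and Clec3a overlap.

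Proteins reported to bind one or more of the 8 were compared as a list, of which 8 were in the table. Of these 1 was higher in CKO and 0 lower with limma and DESeq2, and with edgeR among the 4 it tested. With limma 3 were higher and 0 lower at an unadjusted p under 0.05, and the median log2 fold change was 0.43 (0.28 to 0.60 with each library left out in turn). Fn1, fibronectin, reported to bind Mia, had 929, 1071 and 1496 CPM in WT and 2796, 1778 and 2300.1 CPM in CKO, with every CKO library above every WT library (0.98, limma adjusted p = 0.0267). Without WT 3 or CKO 2 it passed, and without WT 1, WT 2, CKO 1 or CKO 3 it did not (adjusted p up to 0.13). Bst1, a reported receptor of Scrg1, stood at 1.71 (adjusted p = 0.141) on 5 reads in WT and 23 in CKO. The integrins Itga4, Itga5 and Itgb1 stood at -0.45, 0.45 and -0.18, and the growth factors Bmp2, Bmp4 and Fgf2 at -0.03, 0.41 and 0.78. None of these 6 passed the threshold (limma adjusted p from 0.178 to 0.984). Fgf2 rested on 6 reads in WT, where every library was at the floor, and 13 in CKO. Reads were few also for Bmp2, with 12 in WT and 15 in CKO, and for Itga4, with 17 and 11. Without CKO 2, Bmp4 was higher (1.21, adjusted p = 0.00395) and Itgb1 lower (-0.60, adjusted p = 0.0464), so that 2 of the list were higher and 1 lower.

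The level of each gene was next set against Col2a1, the main collagen of the same cells, in every library. Col2a1 had 2720.2, 3133 and 3944 CPM in WT and 1411, 1950.2 and 1426 CPM in CKO, all lower in CKO (log2 fold change -1.03, limma adjusted p = 0.0119). That call was lost without WT 2, CKO 1 or CKO 3, with adjusted p-values up to 0.0694, and with CKO 1 and CKO 3 averaged (0.0668). It was also lost with both alike pairs averaged (-1.03, limma adjusted p = 0.216). The log2 ratio to Col2a1 was compared by a two-sided exact permutation test, whose smallest p for 3 libraries against 3 is 0.1, so no ratio could pass 0.05.

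Ucma, Cnmd, Mia and Snorc were lower in CKO also relative to Col2a1. The log2 ratio of Ucma was -1.25, -1.54 and -0.83 in WT 1, WT 2 and WT 3 and -3.24, -3.96 and -3.31 in CKO 1, CKO 2 and CKO 3, a difference of -2.30 (exact p = 0.1). The differences were -1.65 for Cnmd, -1.16 for Mia and -1.08 for Snorc (exact p = 0.1 for each). In all 4 the genotypes did not overlap. The share of all genes without overlap on this ratio was not computed, so how common this is cannot be told. The ratio of Mgp was 0.01, -0.15 and 0.36 in WT and 1.94, 1.09 and 1.92 in CKO, a difference of 1.58 (exact p = 0.1), and that of Cytl1 differed by 2.53 (exact p = 0.1). These 2 genes were higher relative to Col2a1 in every CKO library. Col2a1 itself changed by -1.03, so a gene with no change in CPM would also be higher relative to it. In CPM, Mgp overlapped between the genotypes and did not pass (0.55, limma adjusted p = 0.213). The ratios of Scrg1 (-0.58) and Clec3a (0.62) overlapped between genotypes (exact p = 0.3 for each). That of Scrg1 was -0.11 without WT 3 and -0.88 without WT 2, and that of Clec3a 0.32 without CKO 2 and 0.36 without WT 2. When the sum of the structural matrix genes replaced Col2a1, the difference was -1.52 for Ucma, -0.87 for Cnmd and -0.38 for Mia (exact p = 0.1 for each), and -0.30 for Snorc (exact p = 0.4). All 4 were thus smaller in size against that sum than against Col2a1. Mgp (2.35), Cytl1 (3.31) and Clec3a (1.40) were higher relative to the sum (exact p = 0.1 for each), and the sign of Scrg1 turned to 0.20 (exact p = 0.7). The sum itself was 18853, 20222 and 27304 CPM in WT and 5950.1, 6941 and 5865 CPM in CKO. A gene with no change in CPM would therefore also be higher relative to it. In CPM, Clec3a was not higher (-0.41, limma adjusted p = 0.616). Against Acan, which was itself lower in CKO (-1.50), Clec3a differed by 1.09 (exact p = 0.1) and Scrg1 by -0.11 (exact p = 1).

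**Figure D4:**
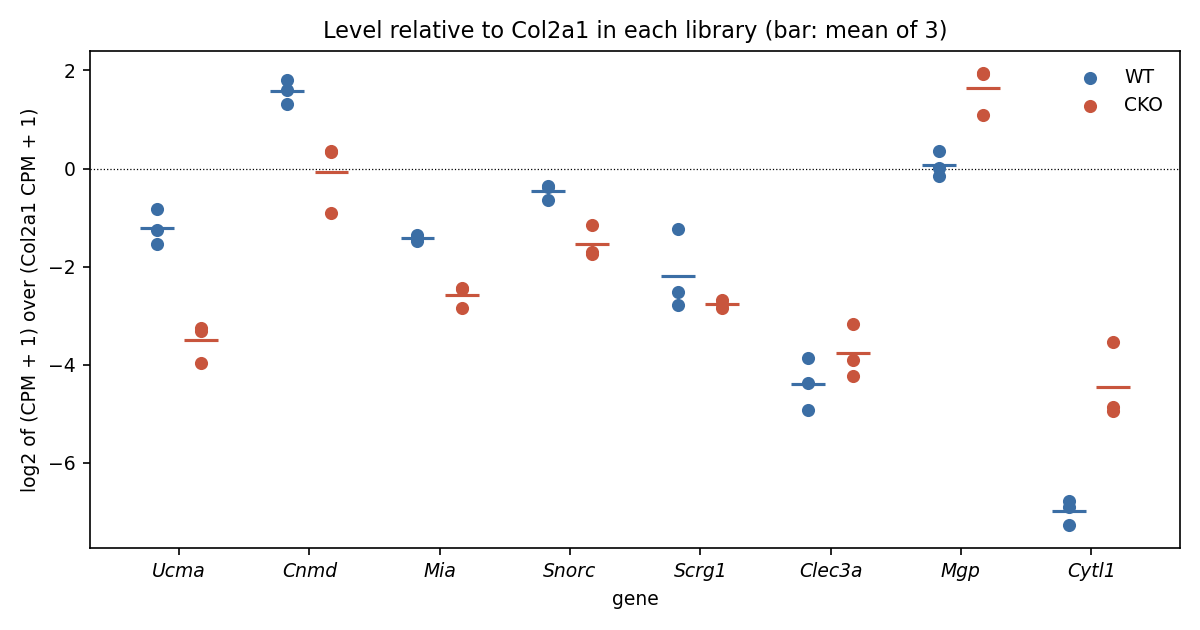
Log2 ratio of each of the 8 genes to Col2a1 in each library (points) with the mean of 3 (bars). Ucma, Cnmd, Mia and Snorc lie lower in all CKO libraries, Mgp and Cytl1 higher, and Scrg1 and Clec3a overlap.

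Levels can be compared between genes only per length, here as CPM per kilobase of annotated exon. In WT the order of the mean levels was Cnmd (5218 ± 95.3 CPM per kb, SD, n = 3), Snorc (3318 ± 845), Mgp (2984 ± 1122), Ucma (1673 ± 729), Scrg1 (1232 ± 992), Mia (1228 ± 223), Clec3a (283 ± 150) and Cytl1 (23.4 ± 2.85). Neighbours from Snorc to Mia overlapped over the libraries, while Cnmd lay above Snorc, Clec3a below Mia and Cytl1 below Clec3a in all of them. In CKO the order was Mgp (4207 ± 623), Cnmd (840.0 ± 238), Snorc (798 ± 357), Scrg1 (337 ± 83.9), Mia (265 ± 7.04), Clec3a (217 ± 131), Ucma (157 ± 14.5) and Cytl1 (82.3 ± 66.7). Mgp lay above Cnmd in all CKO libraries, Cnmd and Snorc overlapped, and so did the neighbours from Mia to Cytl1. Ucma thus stood in place 4 in WT and in place 7 in CKO, and Mgp in places 3 and 1.

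Structural matrix genes are the group most like these 8 in where they are made. Of 19 tested, 12 were lower and 0 higher, with a median log2 fold change of -1.28, and an unadjusted p under 0.05 was reached by 15 lower and 1 higher. Their CPM summed to 18853, 20222 and 27304 in the WT libraries and to 5950.1, 6941 and 5865 in CKO. Matn1, a matrilin, had the most reads over the 6 libraries, and with Comp and Col9a3 it was among the 3 with the largest change (-3.76, -3.08 and -3.08, limma adjusted p = 2.26e-05, 2.26e-05 and 0.00412). Matn1 and Comp are among the genes the study picked out from these libraries. Without WT 2 the count was 8, and without CKO 2 it was 14 lower and 1 higher, with Hspg2 (-1.30, adjusted p = 0.00405) and Chad (-1.93, adjusted p = 0.0343) lower and Prelp higher (1.10, adjusted p = 0.0221). With both alike pairs averaged, 2 were lower and 0 higher. Acan, the core of the main cartilage proteoglycan, had 482, 477 and 746 CPM in WT and 186, 276 and 147 CPM in CKO (-1.50, adjusted p = 0.00859). Its call was lost with both alike pairs averaged (-1.48, limma adjusted p = 0.146). The chondrocyte markers Col2a1, Acan, Sox9, Col9a1 and Hapln1 were present in every library.

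Of 10 chondrocyte transcription factors 0 were called in either direction with limma, nor was any of the 5 that edgeR tested or the 8 to which DESeq2 gave an adjusted p, and the median was 0.19. At an unadjusted p under 0.05, 1 was lower, Sox9 (68.1, 81.8 and 102 CPM in WT and 42.0, 73.6 and 32.1 CPM in CKO, overlapping, -0.83, adjusted p = 0.137), and 1 was higher. Without CKO 2 both passed: Sox9 at -1.15 (adjusted p = 0.00888) and Arid5b at 1.32 (adjusted p = 0.0183). The other 5 fits with a library left out called 0, and over all 6 the median ran from 0.06 to 0.33. Of 3 resting zone genes, 1 was lower: Sfrp5, a secreted Wnt inhibitor, had 28 reads in WT and 0 in each CKO library, at least 3.17-fold lower against a floor of 3 reads per library. edgeR, whose filter on low counts is stricter, tested Gas1 of this list alone, without a call, DESeq2 tested all 3 and called 1 lower, and all 3 were lower at an unadjusted p under 0.05 and by the criterion of the study's methods. The median was -2.44 as fitted, -1.66 with Sfrp5 at its bound and -1.23 as fitted without WT 3. Of 9 genes of hypertrophic chondrocytes, 1 was higher and 0 lower (limma, edgeR and DESeq2; at an unadjusted p under 0.05, 4 were higher and 1 lower), with a median of 0.33. Without CKO 2, Ibsp (2.84, adjusted p = 1.68e-05) and Mmp13 (2.66, adjusted p = 9.29e-04) were higher too, 3 in all, and with each library left out the median ran from 0.24 to 0.84. The gene called with all libraries was Spp1, a mineral-binding matrix protein that osteoblasts and macrophages also make, with 1037, 1095 and 3769 CPM in WT and 11114, 11877 and 12045 CPM in CKO (2.84, limma adjusted p = 0.00403). The list summed to 1598, 1617 and 4694 CPM in WT and 14157, 12464 and 15328 CPM in CKO, most of it Spp1, and Ihh was at 0 in WT 1, WT 2, CKO 1 and CKO 3. Col10a1, the collagen that defines hypertrophy, had 13.05, 15.8 and 43.9 CPM in WT and 24.8, 45.5 and 16.5 CPM in CKO and did not separate the genotypes. Col10a1 was named after its values were seen. Its part, and that of Spp1, in the values of the 8 genes was not tested.

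**Figure D5:**
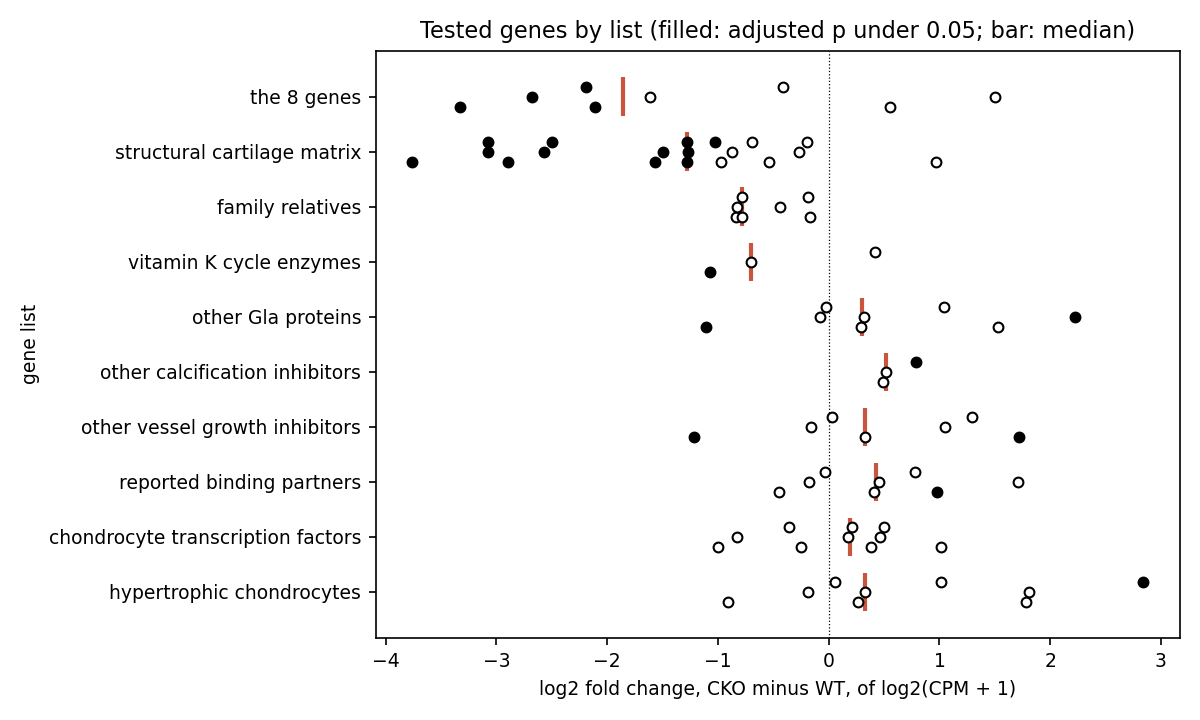
Log2 fold change (CKO minus WT) of each tested gene in 10 lists, with filled points at a limma adjusted p under 0.05 and a bar at each median. Of the 10 lists plotted, the medians of the 8 genes (-1.86) and of the structural matrix genes (-1.28) are the lowest, and the 3 resting zone genes (-2.44) are not plotted.

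Markers of other cells moved with the labels in some lists. Of 9 tendon and fibroblast genes tested, 2 were lower, Dcn (-1.89, limma adjusted p = 0.00429) and Col1a2 (-1.09, adjusted p = 0.0191, lost without WT 2 or CKO 3, up to 0.0863), and 0 higher. At an unadjusted p under 0.05, 5 were lower and 0 higher, and 5 were lower in every CKO library than in any WT library. edgeR called 2 lower among the 7 it tested and DESeq2 3 lower, and neither called any higher. The median was -0.61 (-0.82 to -0.34 with each library left out). Without CKO 2 Col3a1 was lower too (-0.67, adjusted p = 0.0485), 3 in all. The list summed to 3506, 4188 and 5626 CPM in WT and 2393, 1449 and 2368 CPM in CKO, all lower in CKO. Col3a1 held the most reads, and the tendon factor Scx was at 0 in WT 2 and WT 3. Growth plate cartilage also expresses Dcn and the collagens of this list. Their part in the lower values of the 8 genes was not tested.

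Of 6 osteoblast genes 0 passed in either direction with limma, nor any of the 3 that edgeR tested or the 5 with an adjusted p from DESeq2, while 1 was lower and 2 were higher at an unadjusted p under 0.05, with a median of 0.99. Their sum was 458, 522 and 693 CPM in WT and 1276, 367 and 1370.2 CPM in CKO, so CKO 2 lay below all other libraries, and without it 3 were called higher: Ibsp, Bglap and Bglap2, which the hypertrophic and Gla protein lists also hold. The median ran from 0.54 to 1.63 with each library left out. Col1a1 had the highest mean CPM in this list over the 6 libraries, with Ibsp close to it, and Phex was at 0 in all libraries but CKO 3. Of 6 macrophage genes 1 was higher, Cd68 (2.74, adjusted p = 0.00114), and 0 lower, with a median of 0.67. Without WT 3, 2 were higher, Lyz2 being added (1.04, adjusted p = 0.0153), and the median was 1.58; without WT 2 it was 0.33. The sum was 63.1, 63.8 and 297 CPM in WT and 193, 178 and 202 CPM in CKO, with most reads on Lyz2, and WT 3 was the highest. Csf1r was at 0 in WT 1 and WT 2, and C1qa and C1qb were at 0 in WT 2. Whether these cells bear on the values of Scrg1, Ucma and Clec3a in WT 3, or of Cytl1 in CKO 2, was not tested.

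The remaining lists were small or near the floor. Of 8 skeletal muscle genes 0 were called with limma, nor any of the 5 that edgeR tested or the 7 with an adjusted p from DESeq2 (median -0.13, 1 higher at an unadjusted p under 0.05), with sums of 98.6, 63.8 and 270.3 CPM in WT and 124, 111 and 130.0 CPM in CKO, with Mylpf the most abundant, and again the highest value in WT 3. Without WT 3 the median turned to 0.36 and Tnnt3 was higher (1.61, adjusted p = 0.0167), and with each library left out the median ran from -0.78 (without WT 2) to 0.36. With all libraries limma called no gene among 4 osteoclast genes (median 0.42, 1 higher unadjusted), 6 smooth muscle and pericyte genes (0.60, 2 higher unadjusted), 2 erythroid genes (1.16, 0 unadjusted) and 1 endothelial gene (-0.05, 0 unadjusted). Nor did edgeR, on the 2 osteoclast, 4 smooth muscle, 0 erythroid and 1 endothelial genes it tested, or DESeq2, on the 2, 6, 1 and 1 genes to which it gave an adjusted p. Acp5 of the osteoclast list passed without WT 3 (2.20, adjusted p = 0.0308) and Tagln of the smooth muscle list without CKO 2 (1.10, adjusted p = 0.0222). With each library left out, the medians ran from 0.24 to 1.15 for osteoclasts, 0.39 to 0.84 for smooth muscle, 0.68 to 2.07 for erythroid cells and -0.32 to 0.26 for endothelium, and also from 1.10 to 2.39 for the epithelial and -0.23 to 0.79 for the synovial list. Of 2 epithelial genes 1 was higher, Sbsn (3.78, adjusted p = 0.00466, median 2.10), in a list that summed to 42.0, 32.3 and 21.1 CPM in WT and 119, 65.7 and 105 CPM in CKO, with most reads over the 6 libraries on Krt10. Of 3 synovial and articular surface genes 1 was higher, Prg4, lubricin (3.16, adjusted p = 0.00123, median 0.20), in a list that summed to 31.9, 40.5 and 106 CPM in WT and 127, 74.3 and 97.1 CPM in CKO, with most reads over the 6 libraries on Gdf5. Their part in the values of the 8 genes was not tested. Endothelial Cdh5, Emcn, Tie1 and Pecam1 were each at 0 in at least 1 library of both genotypes, and Epcam was at 0 in all but CKO 2 and CKO 3.

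For each of the 8 genes the pair of genes most like it was found by Pearson's r of log2(CPM + 1) over the 6 libraries, among the 5014 genes whose mean reached 20 CPM. This is a measure of likeness over 6 points in 2 genotypes, and nothing on function follows from it. The study itself picked out Matn1 and Pycr1. Ucma was most like Ccdc28b and Kctd4 (r = 0.995 for both), Cnmd most like Matn1 (0.997) and Pmp22 (0.994), Snorc most like Ncmap (0.997) and Col9a2 (0.996), and Mia most like Pycr1 and Nfe2l1 (0.997 for both). These 8 genes were themselves lower in CKO at a limma adjusted p under 0.05, from -0.70 for Pmp22 to -3.76 for Matn1. Scrg1 was most like Bcat1 (0.995) and Smpd3 (0.994), Cytl1 most like Sf1 (0.994) and Id1 (0.993), Mgp most like Tram2 and 1700123O20Rik (0.989 for both), and Clec3a most like Bag6 (0.991) and Atp1b3 (0.987). None of these others passed the adjusted threshold. Id1, an inhibitor of helix-loop-helix factors, shared the high value of Cytl1 in CKO 2, with 79.0, 104 and 102 CPM in WT and 186, 557 and 145 CPM in CKO.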

How the data were processed

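Polyadenylated RNA of growth plate cartilage was measured in 3 WT and 3 CKO libraries, whose genotype and number name the columns of the table. CPM per gene and library are as deposited by the authors. The submitters' processing notes name cutadapt 2.5, HISAT2 and featureCounts 1.6.3, and the genome build and annotation are not given in the sources used here. Whole reads were recovered for 100% of the values (within 0.001 read of a whole number). In R 4.3.3, limma 3.58.1 fitted log2(CPM + 1) on genotype over all genes whose mean reached 1 CPM, with a mean-variance trend, empirical Bayes moderation and Benjamini-Hochberg adjustment. A gene was called at an adjusted p under 0.05. Alternatives were a pseudocount of 0.1, no filter, a filter of 10 CPM, TMM scaling, the replicate number as a block, leaving out each library, edgeR 4.0.16 (quasi-likelihood, TMM or RLE) and DESeq2 1.42.0 on the recovered reads. Coordinates, coding lengths and exon lengths come from the GENCODE annotation of GRCm38, and near-identical copies were sought by BLAST (90% identity over 300 bp). Genes named are the 8, Hnrnpk, Col2a1, Acan, Sox9, in each list the genes past the threshold (at most the 3 with the largest change per direction), all genes of the lists of relatives, vitamin K cycle enzymes and binding partners, and the 2 genes most like each of the 8. Other genes were named after their values were seen: the most abundant gene and the markers at 0 of a list, genes called with a library left out, and Enpp1, Ank, Thbs1, Col10a1, Gas1 and Pthlh. The genes and lists were chosen with earlier results of these data known. For that reason the planned adjustment of the ratio test over the 8 genes was not used, and its exact p-values are unadjusted.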

Additional observations from a re-analysis of the deposited data

How the results depend on the processing

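Ucma, Cnmd and Mia passed the adjusted threshold under all 17 alternatives, Snorc under 16, Scrg1 under 7, Cytl1 under 3, Mgp under 2 and Clec3a under 1, and none changed direction. With each library left out in turn, log2 fold changes ran from -3.52 to -2.99 for Ucma, -2.81 to -2.42 for Cnmd, -2.29 to -2.05 for Mia, -2.46 to -1.91 for Snorc, -1.93 to -0.99 for Scrg1, 0.89 to 1.83 for Cytl1, 0.39 to 0.84 for Mgp and -0.87 to -0.01 for Clec3a. The same fits called 79 to 606 of all genes lower and 123 to 692 higher, and 0 to 1 of the 8 genes higher (0 to 1 by the criterion of the study's methods). Scrg1, at -1.61, passed with no filter (adjusted p = 0.0395) and by that criterion (unadjusted p = 0.00326), at -1.65 with TMM scaling (0.0447), and at -1.90 and -1.89 with edgeR (TMM 0.0419, RLE 0.0423). Cytl1 passed with DESeq2 (1.79, adjusted p = 0.00414), which made 1 of the 8 genes higher, and by the criterion (1.5, unadjusted p = 0.00556). Over its alternatives the adjusted p ranged from 3.19e-08 to 0.253 for Scrg1 and from 0.00414 to 0.257 for Cytl1. The criterion counted 314 lower and 307 higher genes at a mean of at least 10 CPM, where fewer genes are tested. With edgeR, whose test, scaling and filter all differ from those of the limma fit, it counted 380 (TMM) and 385 (RLE) higher. The Scrg1 ratio turned to 0.20 against the structural sum, and the cause was not tested.

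The following were chosen after the data were seen. Without WT 3 and CKO 2 together, 1098 genes were lower and 1312 higher, 2 of the 8 genes were higher (0 by the criterion), and Scrg1 (-1.19, adjusted p = 3.19e-08), Cytl1 (0.89, 0.00717), Mgp (0.97, 2.78e-11) and Clec3a (-0.46, 0.0455) passed. With CKO 1 and CKO 3 averaged, 120 were lower and 139 higher. With both alike pairs averaged, which leaves 2 libraries a genotype, 6 were lower, 5 higher and Snorc did not pass (-2.04, 0.11).

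The replicate numbers pair nothing in the labels, and deviations of same-numbered libraries correlated at 0.0378, -0.131 and -0.103. With the replicate number as a block, 160 genes were lower and 225 higher, and no call among the 8 genes changed.

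TMM factors lay between 0.97 and 1.02, and the median log2 fold change of all genes between -0.028 and 0.03. Depth limits Cytl1 most, with 29 to 37 reads per WT library. Of 280 values recomputed for the 8 genes and for the counts over all genes and over the 8, 236 kept their direction and side of the threshold, or, for counts, lay within 1.5 times, while 28 moved further, 15 came to pass the threshold and 1 no longer passed. Of 80 recomputed ratios, which could not pass in any case, 79 kept their direction. Counts and medians of the other lists are not among these, and several moved further.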
